A study of Mus musculus with 17 samples.

Results

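The genes described here are the hypoxia-inducible transcription factors (HIFs) and their direct regulators in the mouse heart. They comprise the oxygen-regulated subunits Hif1a, Epas1 and Hif3a, their shared partner Arnt, the prolyl hydroxylases Egln1, Egln2 and Egln3, the asparaginyl hydroxylase Hif1an, the ubiquitin ligase subunit Vhl, and Bnip3, a HIF target that acts in mitophagy. These 10 genes were chosen by symbol, not by a cut on their values, out of 21798 genes listed, though with earlier results of these data known. All 10 passed the filter on low values (at least 0.5 CPM, read counts scaled to a common library total, in at least 3 libraries), as did 16218 genes in all. RNA was sequenced from the left ventricular apex of male C57Bl6/J mice 3 weeks after transverse aortic constriction (TAC), which loads the left ventricle with pressure, or after Sham surgery. Mice were 7 to 8 weeks old at surgery and received 6 oral doses of 29P at 50 μg/kg, or volume-matched saline (Veh), over 2 weeks starting 1 week after surgery. 29P is an orally available prodrug of an RGD mimetic that binds αvβ3-integrin. Of the 17 libraries, 5 came from Sham and 3 from TAC mice given saline, called Sham Veh and TAC Veh, and 3 from Sham and 6 from TAC mice given 29P, called Sham 29P and TAC 29P, and none of the groups carried a genetic change. The authors had removed 3 further libraries, 1 of them a TAC Veh library taken out because it clustered with Sham mice, so the TAC Veh group was in part chosen on its expression.

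HIF signalling senses oxygen mainly through protein stability. In oxygenated cells the EGLN enzymes hydroxylate prolines of the HIF alpha subunits, VHL binds the hydroxylated protein, and the ligase around VHL marks it for degradation. HIF1AN hydroxylates an asparagine that blocks the recruitment of the coactivators EP300 and CREBBP. When oxygen falls, the alpha subunits accumulate, pair with ARNT and bind short hypoxia response elements whose core reads ACGTG or GCGTG, and Bnip3 and Egln3 are among the genes they switch on. In the heart EPAS1 is known best from endothelial cells. The data hold mRNA levels only, so neither HIF protein nor hydroxylation was measured.

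Some properties of the whole dataset bear on these genes. Depth, estimated from the step between low values, ran from 14100000 to 23700000 reads a library. Transcripts of the mitochondrial genome took 29.1% to 40.0% of the total in Sham libraries and 23.6% to 29.4% in TAC libraries, and CPM values are shares of that total. The typical gene lay above 0 after TAC, with a median log2 fold change of 0.35 in the Veh arm and 0.37 in the 29P arm. Scaling by trimmed mean of M-values (TMM), which centres the bulk of genes, moved these medians by -0.32 and -0.35. Differences of the 10 genes after TAC are therefore given on both scales. The markers listed for ventricular cardiomyocytes (Myh6, Myl2, Myl3, Tnni3, Tnnt2, Actc1, Ryr2 and Pln) summed to 36410 to 53210 CPM in every library. Markers of atrial cardiomyocytes (Myl7, Myl4, Sln, Bmp10 and Dkk3) summed to 1723 CPM in 1 TAC 29P library and to 2132 and 2666 CPM in 2 Sham Veh libraries, against at most 28.6 CPM in the other 14. The ventricular sum did not set these 3 libraries apart (45510, 50730 and 40380 CPM), so it does not test the chamber. For the 10 genes and the pathway genes named, results on CPM as deposited are also given without these 3 libraries where that changed a call.

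The promoters of the subunit, the hydroxylase and the target gene that the results turn on are shown first, with matches to the response element core marked. RefSeq windows (GRCm38.p6) run from 250 bases before to 50 after the gene start in the RefSeq table, and 9 of the 10 genes matched a window in the table used. The windows lie at chr12:73907617-73907916 on the plus strand for Hif1a, chr8:124949205-124949504 on the minus strand for Egln1, and chr7:138909457-138909756 on the minus strand for Bnip3. The Hif1a start used there lies inside the span that GENCODE gives the gene, downstream of its first base, so the window is not the promoter of the most upstream transcripts. They are written 5′ to 3′ along the gene, and capitals mark each ACGTG or GCGTG on either strand (read as CACGT or CACGC on the other).
Hif1a: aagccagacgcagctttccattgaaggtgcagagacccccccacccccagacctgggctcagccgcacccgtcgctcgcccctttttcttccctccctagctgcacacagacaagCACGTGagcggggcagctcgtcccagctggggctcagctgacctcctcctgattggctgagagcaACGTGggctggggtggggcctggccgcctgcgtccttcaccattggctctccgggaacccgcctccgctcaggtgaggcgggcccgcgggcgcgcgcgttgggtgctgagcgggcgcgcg
Egln1: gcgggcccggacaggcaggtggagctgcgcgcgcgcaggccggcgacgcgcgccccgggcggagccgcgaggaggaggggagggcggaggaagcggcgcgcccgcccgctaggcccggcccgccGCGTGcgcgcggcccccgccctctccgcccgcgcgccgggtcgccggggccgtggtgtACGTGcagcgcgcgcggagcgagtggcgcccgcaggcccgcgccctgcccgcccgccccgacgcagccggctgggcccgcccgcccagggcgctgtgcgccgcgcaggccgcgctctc
Bnip3: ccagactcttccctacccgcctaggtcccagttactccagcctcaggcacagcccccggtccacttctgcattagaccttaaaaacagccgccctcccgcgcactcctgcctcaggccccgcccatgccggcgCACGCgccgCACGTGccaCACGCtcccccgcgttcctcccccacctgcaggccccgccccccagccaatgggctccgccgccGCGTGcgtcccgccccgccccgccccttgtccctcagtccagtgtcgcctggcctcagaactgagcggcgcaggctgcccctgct
The Hif1a window held 3 matches, of which 2 are the same palindrome CACGTG read on both strands. The Egln1 window held 2 and the Bnip3 window 5, again with 1 palindrome counted on both strands. A match was found for 7 of the 9 genes and for neither Vhl nor Hif1an, while 43.8% of all 32851 windows held at least 1. A match describes these letters and does not show that a factor binds there.

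Among the HIF alpha subunits, Epas1 was the most abundant per length. Levels between genes were compared as CPM per kilobase of exon. Egln1 stood highest of the 10 genes, with a group mean of 79.1 ± 13.6 CPM per kilobase in Sham Veh (SD, n = 5), followed by Bnip3 (49.6 ± 6.17) and Epas1 (48.5 ± 9.38), whose levels did not differ beyond their spread. Egln3 (16.1 ± 5.29) and Hif1a (11.8 ± 1.06) came next and also overlapped within their spread. Egln2 (8.22 ± 1.58), Hif1an (6.92 ± 2.38), Arnt (4.19 ± 0.30) and Vhl (2.92 ± 0.32) were lower. Hif3a, whose protein can restrain the other subunits, was barely detected at 0.11 ± 0.07 CPM per kilobase. Its values ranged from 0.07 to 1.99 CPM over the 17 libraries and reached 0.5 CPM in 12 of them.

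**Figure D1:**
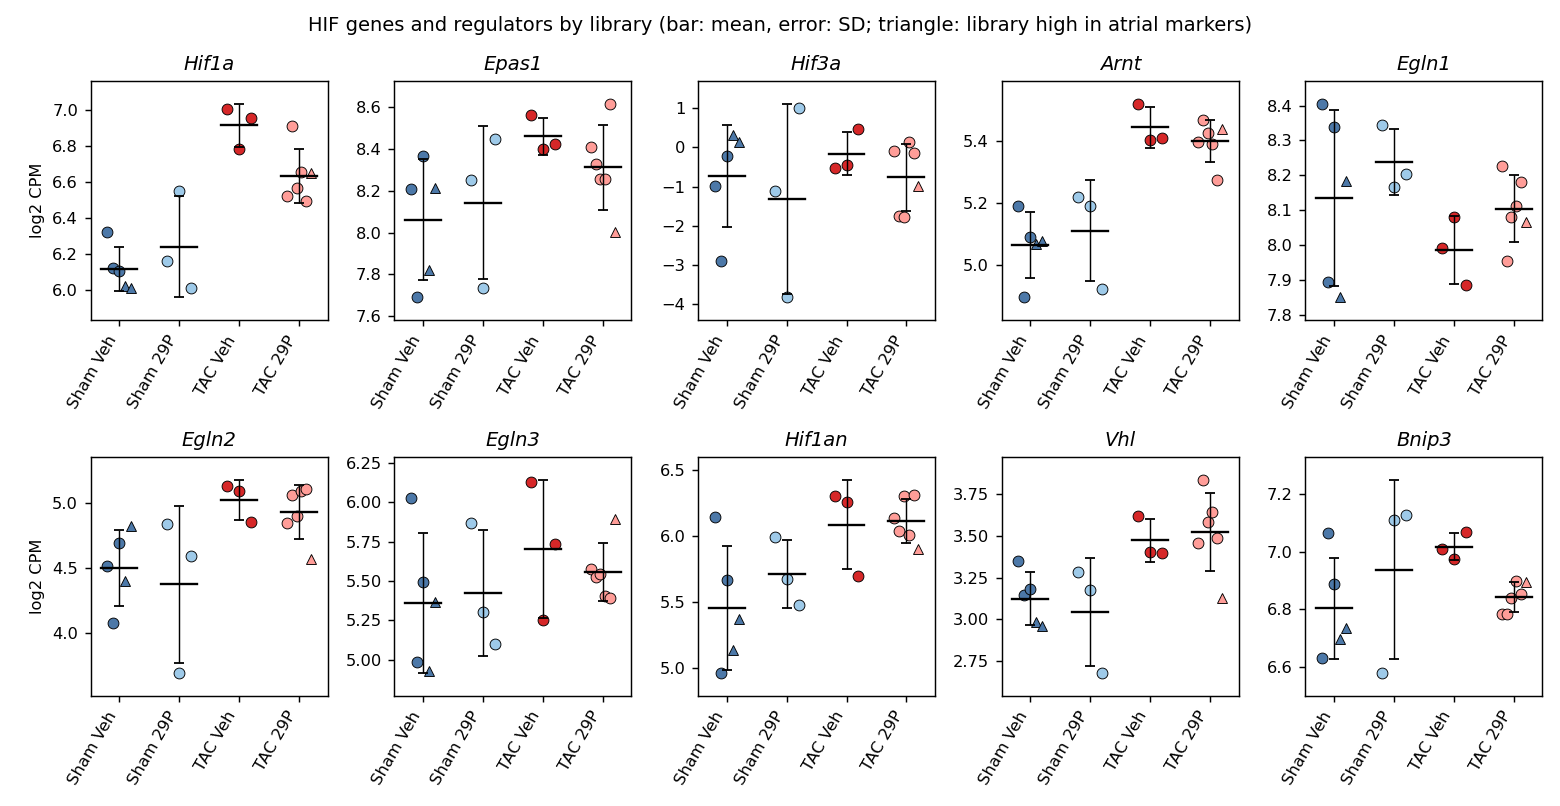
Level of each of the 10 genes in each library, as log2 CPM, by group (5, 3, 3 and 6 libraries from left to right). Bars are group means, error bars the SD, and triangles the 3 libraries high in atrial markers. The 3 TAC Veh libraries lie above every Sham Veh library for Hif1a, Epas1, Arnt, Vhl and Egln2.

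The first comparison asked what 3 weeks of pressure overload did to these genes in saline-treated mice. On CPM as deposited Hif1a rose 1.74-fold, Hif1an 1.55-fold and Arnt 1.3-fold in TAC Veh against Sham Veh, and no gene of the 10 was called lower. These 3 of 10 compare with 24.4% of all genes tested that passed the same threshold (limma, Benjamini-Hochberg adjusted p at or under 0.05 over all genes), and nearly all of those were higher (22.5% higher, 1.91% lower). The median log2 fold change of the 10 genes was 0.39, beside 0.35 for all genes. With TMM scaling Hif1a was still called higher, Hif1an and Arnt were not, and Egln1 was called lower (log2 fold change -0.47, limma adjusted p = 0.0093).

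Hif1a (ENSMUSG00000021109.13, chr12:73901375-73947530, plus strand) encodes the alpha subunit of HIF1. It measured 64.4, 65.0, 69.0, 69.8 and 79.9 CPM in the Sham Veh libraries and 110, 124 and 129 CPM in the TAC Veh libraries. All TAC Veh libraries lay above all Sham Veh libraries. The log2 fold change was 0.80 ± 0.12 (SE; limma adjusted p = 0.00123), and the exact two-sided permutation test gave p = 0.0179, the smallest possible for 3 against 5. It stayed past the threshold in each of 8 fits that left out 1 library, with log2 fold changes of 0.75 to 0.86. With TMM scaling the rise was 0.48 (adjusted p = 0.0401), and with TMM scaling and without the 3 libraries high in atrial markers it was 0.41 and no longer passed (adjusted p = 0.158). The numbers in the column headers fall into 4 sets of nearby values, whose meaning is not given in the sources used here. Within each set, over both treatments, the mean of TAC minus Sham lay between 0.45 and 0.94 on the log2 scale. The set of S1 to S11 had 6 TAC and 3 Sham libraries. Each of the others had 1 TAC library, and the 0.94 was 1 library minus 1. The 3 libraries high in atrial markers make up exactly 1 set, so atrial tissue and set cannot be told apart. Hif1a shares 330 exon bases with the antisense gene Gm15283, which had a median of 0.29 CPM, and the strand setting of the counting was not given in the sources used here. It also shares 148 exon bases with Gm49321, a protein-coding gene on the same strand that is not among the genes listed.

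Epas1 (chr17:86753700-86833410, plus strand) encodes the alpha subunit of HIF2. It measured 206 to 331 CPM in Sham Veh, with a median of 296 CPM, and 338, 343 and 378 CPM in TAC Veh. The groups did not overlap, but the log2 fold change of 0.40 ± 0.17 (SE) passed only the unadjusted threshold of 0.05 (limma adjusted p = 0.0888; exact permutation p = 0.0714), and it was 0.08 with TMM scaling. The rise was 0.37 without the 3 libraries high in atrial markers, and it then passed neither threshold. All 8 endothelial markers summed to 592 to 987 CPM in Sham Veh and 972 to 1257 CPM in TAC Veh, ranges that overlapped. On CPM as deposited 2 of the 8 were called higher, near the 22.5% of all genes. Their median log2 fold change was 0.50, beside 0.35 for all genes. The part of these markers in the Epas1 value was not tested. In bulk tissue, more cells of a type and more RNA per cell cannot be told apart. Hif3a (chr7:17031507-17062427, minus strand) spanned 0.13 to 1.25 CPM in Sham Veh and 0.70 to 1.39 CPM in TAC Veh, and its log2 difference of 0.57 had a 95% interval of -1.29 to 2.42 (0.25 with TMM scaling).

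Arnt (chr3:95434388-95497240, plus strand), the partner that all HIF alpha subunits need to bind DNA, varied little within groups. It measured 29.8, 33.6, 33.8, 34.1 and 36.5 CPM in Sham Veh and 42.4, 42.5 and 45.9 CPM in TAC Veh. The groups were separate, with a log2 fold change of 0.38 ± 0.10 (SE; limma adjusted p = 0.0130). This rise was close to the shift of all genes: with TMM scaling the log2 fold change was 0.06 (adjusted p = 0.738), and with totals that leave out mitochondrial-encoded genes it was 0.22 (adjusted p = 0.111). It also lost its call without TAC Veh library S2 (0.34, adjusted p = 0.0880).

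The EGLN enzymes, which mark HIF alpha subunits for degradation, did not move as a group. Egln1 (chr8:124908587-124949324, minus strand), regarded as the main oxygen sensor of the family, measured 231, 238, 291, 324 and 339 CPM in Sham Veh. In TAC Veh it measured 236, 254 and 270 CPM, within the Sham range. Its log2 difference was -0.15 ± 0.12 on CPM as deposited (limma adjusted p = 0.354), yet it fell by 0.47 with TMM scaling (log2 fold change -0.47, adjusted p = 0.00930), which sets the bulk of genes near 0. On CPM as deposited Egln1 was the only gene of the 10 with a negative difference, and 11.7% of all genes tested lay below it. With TMM scaling Bnip3 was negative too (-0.11).

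Egln2 (chr7:27158658-27166802, minus strand) measured 16.9 to 28.4 CPM in Sham Veh and 28.8, 34.1 and 35.0 CPM in TAC Veh. These groups did not overlap, and the log2 difference of 0.52 ± 0.21 passed the unadjusted threshold alone (limma adjusted p = 0.0789; exact permutation p = 0.0357), and was 0.20 with TMM scaling. Egln3 (chr12:54178981-54203860, minus strand), a hydroxylase that is itself induced by HIF, measured 30.4 to 65.3 CPM in Sham Veh and 38.1, 53.3 and 69.9 CPM in TAC Veh. Its groups overlapped and its log2 difference of 0.34 ± 0.24 did not pass (adjusted p = 0.275), and was 0.02 with TMM scaling.

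Hif1an (chr19:44562850-44576274, plus strand), the enzyme that limits coactivator binding, measured 31.1, 35.0, 41.3, 50.7 and 70.6 CPM in Sham Veh and 51.8, 76.4 and 79.0 CPM in TAC Veh. One Sham Veh library lay inside the TAC range. The log2 fold change was 0.63 ± 0.22 (SE; limma adjusted p = 0.0425), and the exact permutation p was 0.0893. The call was lost with TMM scaling (0.31, adjusted p = 0.3), without the 3 libraries high in atrial markers (0.50, adjusted p = 0.156), and in 5 of 8 fits that left out 1 library.

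Vhl (chr6:113623959-113631633, plus strand), the subunit that recognises hydroxylated HIF, measured 7.79 to 10.2 CPM in Sham Veh and 10.6, 10.6 and 12.3 CPM in TAC Veh. The groups were separate, but the log2 difference of 0.35 ± 0.17 did not pass (limma adjusted p = 0.123; exact permutation p = 0.0357), and was 0.03 with TMM scaling. Bnip3 (chr7:138890836-138909519, minus strand) encodes a mitochondrial outer membrane protein that recruits the autophagy machinery. It measured 99.1 to 134 CPM in Sham Veh and 126, 129 and 134 CPM in TAC Veh, with a log2 difference of 0.21 ± 0.12 (adjusted p = 0.185) and -0.11 with TMM scaling. Bnip3 shares 504 exon bases with the antisense gene Gm45507. Counting Epas1 and Egln2, 5 of the 10 genes passed the unadjusted threshold of 0.05, against 40.9% of all genes (37.4% higher), and the groups did not overlap for 5 of 10, against 29.8% of all genes (27.6% higher).

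**Figure D2:**
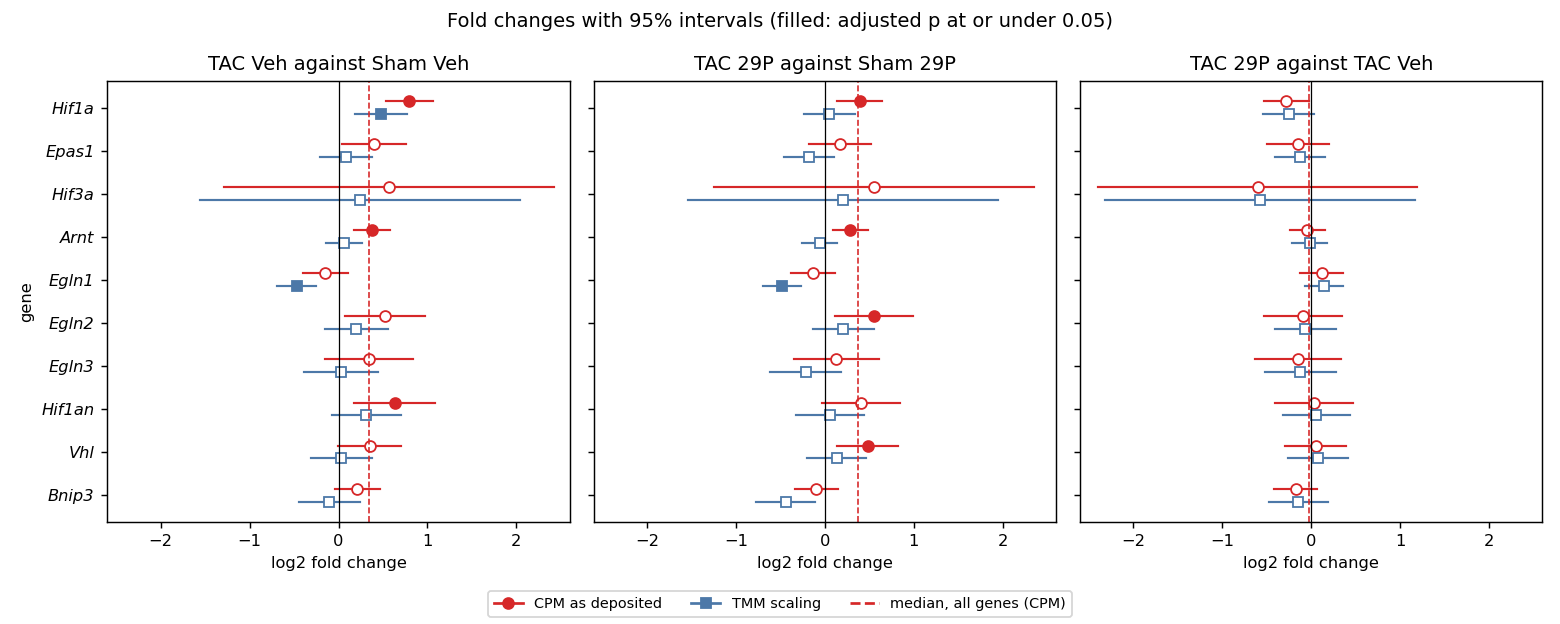
Log2 fold change of each gene with its 95% interval in 3 comparisons, on CPM as deposited (circles) and with TMM scaling (squares), filled where the limma adjusted p is at or under 0.05. The dashed line is the median of all genes on CPM as deposited. With TMM scaling Hif1a (0.48) and Egln1 (-0.47) are filled for TAC Veh against Sham Veh, and Egln1 alone (-0.48) for TAC 29P against Sham 29P.

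A ratio between a pair of genes within one library does not depend on the library's scaling. The ratio of Hif1a to Egln1, the alpha subunit to its main hydroxylase, was chosen after its values were seen and is given as a description. It was 0.21 to 0.29 in the 5 Sham Veh libraries and 0.41, 0.51 and 0.52 in the 3 TAC Veh libraries. The ranges were separate, and the mean log2 ratio was -2.02 ± 0.21 in Sham Veh and -1.07 ± 0.20 in TAC Veh (SD). In the 29P arms the ratio was 0.22, 0.22 and 0.33 in Sham and 0.31 to 0.48 in TAC, so that these ranges overlapped, with mean log2 ratios of -2.0 ± 0.33 and -1.47 ± 0.24. The ratios of Hif1a to Arnt and of Hif1a to Vhl were likewise separate between TAC Veh and Sham Veh, by 0.42 and 0.45 on the log2 scale. The ratio of Hif1a to Epas1 overlapped between these groups. A ratio shows that 2 transcripts changed unequally, not which of them changed.

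**Figure D3:**
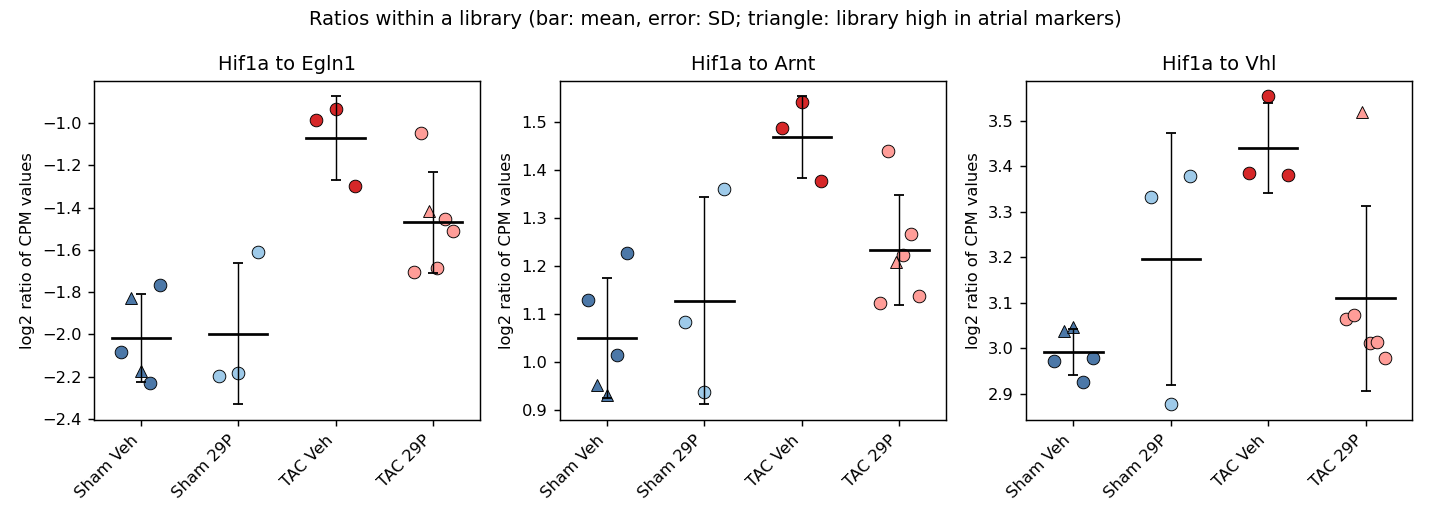
Log2 ratio of Hif1a to Egln1, to Arnt and to Vhl (from CPM) in each library, by group, with the group mean (bar) and SD. In all 3 panels the TAC Veh libraries lie above every Sham Veh library, while TAC 29P overlaps Sham 29P.

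The same question was asked in 29P-treated mice. Against Sham 29P, TAC 29P libraries held more Hif1a (1.31-fold), Arnt (1.22-fold), Vhl (1.39-fold) and Egln2 (1.47-fold), and no gene of the 10 was called lower. That is 4 of 10, beside 32.5% of all genes (31.4% higher, 1.12% lower). Their median log2 fold change was 0.34, beside 0.37 for all genes. With TMM scaling none of the 4 passed, and Egln1 alone did, lower by 0.48 (log2 fold change -0.48 ± 0.10 SE, limma adjusted p = 0.00882). Hif1a measured 64.4, 71.5 and 93.9 CPM in Sham 29P. In TAC 29P it measured 90.3 to 120 CPM, with a median of 97.6 CPM. One Sham 29P library, S14, lay within the TAC 29P range. The log2 fold change was 0.39 ± 0.12 (SE; limma adjusted p = 0.0234; exact permutation p = 0.0357) on CPM as deposited and 0.05 with TMM scaling.

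Arnt was the only gene of the 10 whose TAC 29P and Sham 29P libraries were separate, against 26.1% of all genes (25% higher), at 38.7 to 44.3 CPM and 30.4 to 37.3 CPM. Its log2 fold change was 0.29 ± 0.09 (adjusted p = 0.0289) and turned to -0.06 with TMM scaling. Without the 3 libraries high in atrial markers it was 0.28 and no longer passed (adjusted p = 0.0522). Vhl measured 6.39, 9.02 and 9.73 CPM in Sham 29P and 8.75 to 14.3 CPM in TAC 29P (log2 fold change 0.48 ± 0.16, limma adjusted p = 0.0336; 0.13 with TMM scaling). Egln2 measured 13, 24.2 and 28.6 CPM in Sham 29P and 23.7 to 34.5 CPM in TAC 29P (0.55 ± 0.21, adjusted p = 0.0492; 0.21 with TMM scaling). For both, TAC 29P library S18, one of those high in atrial markers, was the lowest of its group. Bnip3 measured 95.7, 138 and 140 CPM in Sham 29P and 110 to 119 CPM in TAC 29P. Its log2 difference was -0.10 ± 0.12 (limma adjusted p = 0.542) and -0.44 with TMM scaling, which passed the unadjusted threshold only (adjusted p = 0.0786). Epas1 differed by 0.17 (-0.18 with TMM scaling), Hif3a by 0.55 (0.20), Egln1 by -0.13, Egln3 by 0.13 (-0.22) and Hif1an by 0.40 (0.06), and none of these 5 was called on CPM as deposited. The 4 calls rested on few Sham libraries: without Sham 29P library S15 none of the 10 was called, and without S14 only 1, against 21.6% and 6.69% of all genes. When the set of nearby header numbers was added to the model, none was called, against 4.35% of all genes.

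The next comparison asked whether 29P altered these genes in the pressure-overloaded ventricle. None of the 10 passed the adjusted threshold in TAC 29P against TAC Veh with limma, and no gene of the whole table did. At an unadjusted p of 0.05, 1 of the 10 passed, Hif1a, against 1.98% of all genes (0.931% lower). Its values of 90.3 to 120 CPM in TAC 29P overlapped the 110, 124 and 129 CPM of TAC Veh through 1 library, S3, at 120 CPM. The log2 difference was -0.28 ± 0.12 (SE; limma adjusted p = 1; exact permutation p = 0.0357), and -0.25 with TMM scaling, where it passed neither threshold. Leaving out single libraries gave -0.35 to -0.23, past the unadjusted threshold in 4 of 9 fits. The single set of header numbers with both treatments after TAC held 5 TAC 29P libraries and 1 TAC Veh library, and the difference there was -0.38. Red blood cell markers differed in the same direction, though 0 of 5 were called. They summed to 3082 to 4992 CPM in TAC Veh and 1036 to 4151 CPM in TAC 29P, where S3 was the highest and the other 5 libraries reached at most 2285 CPM. Among TAC 29P libraries, S3 was also highest in macrophage and leukocyte markers (235 CPM) and lowest in ventricular cardiomyocyte markers (38250 CPM). In fibroblast markers S3 (2101 CPM) and S18 (2094 CPM) were nearly equal. Outside S3, red blood cell sums were 1498 CPM in S1, 2285 in S8, 1036 in S9, 1353 in S11 and 1413 in S18. Hif1a measured 92, 94.8, 101, 90.3 and 100 CPM in the same order. The part of these markers in the Hif1a value was not tested.

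Bnip3 was the 1 gene of the 10 whose TAC groups were separate, against 1.83% of all genes (0.987% lower). It measured 110, 110, 114, 116, 119 and 119 CPM in TAC 29P and 126, 129 and 134 CPM in TAC Veh. All 6 TAC 29P libraries lay below all 3 TAC Veh libraries, and the exact permutation p was 0.0119, the smallest that 6 against 3 allow. The log2 difference was small, -0.17 ± 0.12 (SE), and with limma, which shares the spread with other genes and groups, it passed neither threshold. The Sham Veh range of 99.1 to 134 CPM spanned both TAC groups. Among the remaining members, log2 differences ran from -0.60 for Hif3a, with a 95% interval of -2.4 to 1.2, to 0.12 for Egln1, with an interval of -0.13 to 0.36. Apart from Hif3a, the 95% intervals of the 10 genes lay between -0.63, for Egln3, and 0.47, for Hif1an. Differences within a gene's interval were not excluded with these group sizes. Only the Hif1a interval, not adjusted for the number of genes, left out 0 (-0.53 to -0.03).

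In Sham mice no difference between 29P and Veh was called for any of the 10 genes at either threshold, against 0.00617% of all genes at the adjusted and 7.49% at the unadjusted threshold. Log2 differences ran from -0.59 for Hif3a to 0.26 for Hif1an (limma adjusted p = 0.801). The difference between the TAC effects in the 29P and Veh arms, tested as an interaction, passed for none of the 10 after adjustment. Hif1a alone passed unadjusted, against 2.84% of all genes (0.863% lower), with a smaller TAC effect under 29P (log2 difference -0.40 ± 0.17 SE, limma adjusted p = 0.998). The Hif1a interaction was -0.34 without the 3 libraries high in atrial markers, and it then passed neither threshold. The interaction for Bnip3 was -0.31 ± 0.17 and passed neither threshold.

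The partners of these genes were examined as 4 lists. The VHL ligase is built from Elob, Eloc, Cul2 and Rbx1, and none of the 4 was called in TAC Veh against Sham Veh (median log2 fold change 0.11, all genes 0.35). Cul2, the scaffold, differed by 0.14 ± 0.10, Elob by 0.32 ± 0.24 and Eloc by -0.17 ± 0.12, and with TMM scaling the values were -0.18, -0.0011 and -0.49, again with none called. Of 9 cofactors and stability modifiers (median 0.26), 3 were called higher, where 22.5% of all genes were. That count includes Arnt2, which passed the filter through TAC libraries only, so it is not read as a result. The coactivators Ep300 (0.44 ± 0.14, limma adjusted p = 0.0298) and Crebbp (0.34 ± 0.12, adjusted p = 0.0477) rose on CPM as deposited and stood at 0.12 and 0.02 with TMM scaling. Without the 3 libraries high in atrial markers neither passed (adjusted p = 0.0728 and 0.0967). The third, Arnt2, a relative of Arnt, is given as a description, because it reached 0.5 CPM in TAC libraries only and so entered the test through the groups where it was high. It lay at 0.04 to 0.19 CPM in Sham Veh and measured 0.32, 0.73 and 1.10 CPM in TAC Veh.

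Of 30 listed genes that HIF switches on, 29 were tested. In TAC Veh against Sham Veh 5 of them rose and none fell, beside 22.5% of all genes higher, with a median log2 fold change of 0.39 (all genes 0.35). At the unadjusted threshold 12 of the 29 were higher, beside 37.4% of all genes, and without the 3 libraries high in atrial markers 6 of 28 were called higher, where 14.7% of all genes were called. Pfkfb3, a glycolytic regulator, rose by 0.92 ± 0.22 (limma adjusted p = 0.00890), the transcriptional repressor Bhlhe40 by 0.80 ± 0.21 (adjusted p = 0.0162) and Lox, which cross-links collagen, by 2.19 ± 0.60 (adjusted p = 0.0176). Of the fibroblast markers, 4 of 6 were called higher, beside 22.5% of all genes. They summed to 724 to 1151 CPM in Sham Veh and 1480 to 2115 CPM in TAC Veh, and their part in the Lox value was not tested. With TMM scaling Pfkfb3 (0.60, adjusted p = 0.0779) and Bhlhe40 (0.48, adjusted p = 0.107) no longer passed. Lox alone of the 29 was called higher (1.87, adjusted p = 0.0479) and Higd1a, a mitochondrial protein gene, was called lower (-0.49, adjusted p = 0.0101), beside 9.54% of all genes called. In TAC 29P against Sham 29P 7 of the 29 rose and none fell (median 0.35, all genes 0.37), beside 31.4% of all genes higher. In TAC 29P against TAC Veh none of the 29 was called. Pfkfb3 was the 1 gene past the unadjusted threshold (-0.68 ± 0.21, limma adjusted p = 1), beside 1.98% of all genes (0.931% lower). Adm, which encodes a vasodilator peptide, differed by 0.55 ± 0.29 there and passed neither threshold.

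Besides Bnip3, 7 mitophagy genes were followed. Pink1, the kinase that flags damaged mitochondria, was the 1 gene of the 7 called in TAC Veh against Sham Veh, beside 24.4% of all genes (1.91% lower). It fell by 0.39 on the log2 scale (-0.39 ± 0.12, limma adjusted p = 0.0307), and by 0.71 with TMM scaling (log2 fold change -0.71, adjusted p = 0.000842). Without the 3 libraries high in atrial markers the value on CPM was -0.40 and no longer passed (adjusted p = 0.0598). The Bnip3 relative Bnip3l (0.28 ± 0.12, limma adjusted p = 0.102; -0.04 with TMM scaling) was not called. In TAC 29P against TAC Veh, Pink1 stood at 0.23 ± 0.12 and Bnip3l at -0.08 ± 0.12.

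**Figure D4:**
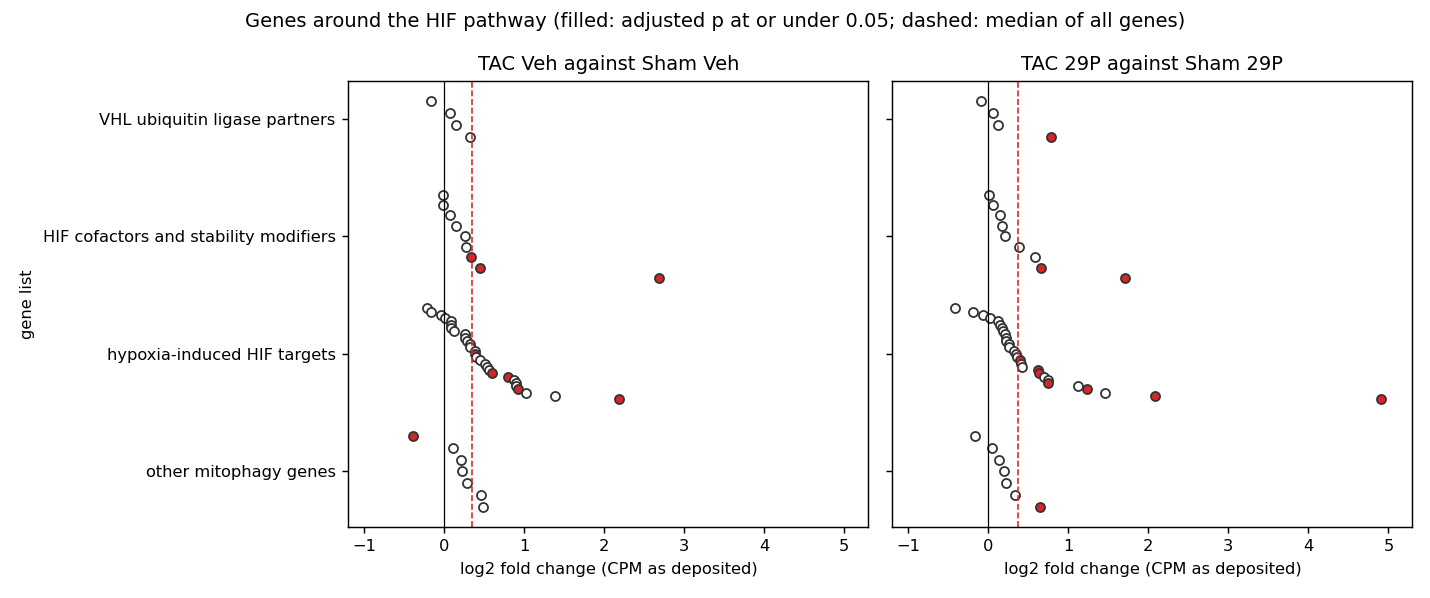
Log2 fold change on CPM as deposited of each tested gene of the 4 lists, for TAC Veh against Sham Veh and TAC 29P against Sham 29P, filled where the limma adjusted p is at or under 0.05, with the median of all genes as a dashed line (0.35 and 0.37). On the left the list medians are 0.11, 0.26, 0.39 and 0.22 from top to bottom, and Pink1 is the filled point below 0 on the left. Arnt2 is also filled on the left, though it reached 0.5 CPM in TAC libraries only.

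Markers of other cell types differed between Sham and TAC alongside these genes. Marker values are given on CPM as deposited only, where 22.5% of all genes were called higher and 1.91% lower in TAC Veh against Sham Veh. There 6 of 6 macrophage and leukocyte markers were called higher (99.0 to 139 CPM summed in Sham Veh, 187 to 297 CPM in TAC Veh). So were 5 of 5 red blood cell markers (1018 to 2463 and 3082 to 4992 CPM). Of the mural markers, 2 of 6 were called higher (220 to 450 and 353 to 474 CPM). Their median log2 fold change of 0.42 lay near the 0.35 of all genes. Of 8 ventricular cardiomyocyte markers, 1 was lower and none higher. The 3 adipocyte markers summed to at most 0.59 CPM in TAC Veh. The part of these shifts in the values of Hif1a, Hif1an and Arnt was not tested.

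Across the 17 libraries, the genes with the profile nearest to Hif1a were Prkab2, Kif5b and Slain2, with root-mean-square differences of centred log2 CPM of 0.12, 0.12 and 0.12, against an SD of 0.33 for Hif1a itself. For Epas1 they were Aph1a (0.10), Peg13 (0.10) and Snrnp70 (0.11), against an SD of 0.26. For Hif3a the nearest, Gm14830, differed by 0.63, followed by Pla2g4b (0.74) and Adora2b (0.76), against an SD of 1.21. These likenesses include the shift that all genes share between Sham and TAC.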

How the data were processed

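Libraries of poly(A) RNA from the left ventricular apex were aligned by the authors with STAR (version 2.3.7, run in Partek Flow) against mm10. The deposited values are CPM with 0.0001 added, so the total of a library, including its mitochondrial transcripts, scales every gene. Between 81.7% and 84.3% of low values were whole multiples of a single read (within 0.05 reads), too few to recover counts, so a test on log2 CPM was used in place of a count test. The 10 genes, the pathway lists and the markers were chosen with earlier results of these data known.

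The deposited CPM values were log2 transformed, genes with at least 0.5 CPM in at least 3 libraries were kept, and group means of all 4 groups were fitted with limma (3.58.1, trend) in R (4.3.3). P-values were adjusted by Benjamini-Hochberg over 16218 genes, with a threshold of 0.05, and the unadjusted threshold used in the study was a second rule. Exact two-sided permutation tests were run on single genes. TMM factors were computed on the CPM table, trimming 30% of log ratios and 5% of levels. The steps were tested on simulated data.

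Named were all 10 genes in every comparison, up to 3 genes of each list with the smallest p in TAC Veh against Sham Veh, up to 2 in TAC 29P against TAC Veh, and the 3 nearest profiles of each alpha subunit. A gene that this rule names is not reported here. Higd1a and the ratios were chosen after their values were seen. Gene positions and exon lengths are those of GENCODE vM21 (mm10), promoters those of RefSeq (GRCm38.p6). Other scalings, added constants, filters, array weights, covariates and left-out libraries were tried.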

Additional observations from a re-analysis of the deposited data

Results flagged for a closer look

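Within groups of 5 or 6 libraries, 36 sets of values (the 10 genes and 8 marker sums) were searched for a library that stands apart by Dixon's criterion, and 4 were found, where chance gives about 1 in 20. Egln3 in TAC 29P library S18 was at 5.90 log2 CPM, above the next library at 5.58. The same library stood apart in the atrial marker sum (1723 CPM, next 28.6 CPM) and in the adipocyte marker sum (8.75 CPM, next 0.69 CPM). Sham Veh library S20 stood apart in the adipocyte marker sum (12.7 CPM, next 2.28 CPM). No interaction between TAC and 29P passed the adjusted threshold for any of the 10 genes.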

How the results depend on the processing

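Counts of called genes among the 10 depended on scaling more than on added constants. The share of all genes called under each setting is given in brackets. For TAC Veh against Sham Veh, 3 were called as reported (24.4%), 5 at an unadjusted p of 0.05 (40.9%) and 1 with totals without mitochondrial-encoded genes (12.9%). With TMM factors without the libraries high in atrial markers (chosen after seeing the data), 1 was called, Egln1 lower (6.64%). Leaving out single libraries gave 1 to 3, the lowest without TAC Veh library S2 (2.97%). For TAC 29P against Sham 29P, 4 were called as reported (32.5%), 1 with TMM factors (10.6%) and 1 with median-of-ratios factors (10.7%). With TMM factors without the libraries high in atrial markers 1 was called (13.2%), and 0 with totals without mitochondrial-encoded genes (14.7%). With only the groups compared 2 were called (29%), and 0 when the set of nearby numbers in the column headers was added to the model (4.35%). Leaving out single libraries gave 0 to 4: 0 without Sham 29P library S15 (21.6%), 1 without S14 (6.69%) or TAC 29P library S3 (20.4%), and 2 without S8 (28.4%) or S9 (24.2%). Arnt in this comparison turned from 0.29 to -0.0587 with TMM factors, -0.0712 with median-of-ratios factors and -0.0714 with TMM factors without the atrial libraries. Changes under a scaling follow from its construction; the cause of the others was not tested. At an unadjusted p of 0.05, 1 of the 10 passed for TAC 29P against TAC Veh and 1 for the difference of the TAC effects, where 0 passed after adjustment, also in every fit without 1 library. Of single values under other settings, 103 of 119 kept their call for TAC Veh against Sham Veh (12 lost it, 4 gained it) and 89 of 119 for TAC 29P against Sham 29P (22 lost it, 5 gained it, 3 reversed). No paired analysis was possible because the library numbers are unique, so that groups share no replicate number. The header numbers fall into 4 sets that span groups, 1 of them the 3 libraries high in atrial markers. The fit with these sets is the one given above. Depth limits Hif3a, near 1 CPM, and the 3 libraries of Sham 29P and of TAC Veh limit every comparison.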
